A study of Danio rerio with 9 samples.

Results

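Caveolae are flask-shaped pits of the plasma membrane. Caveolins build their coat together with the cavins, which bind it from the cytoplasm, and in mammals a set with caveolin 1, caveolin 2, cavin 1 and cavin 2 is typical of endothelium, fat and connective tissue, whereas caveolin 3 and cavin 4 are typical of striated muscle. The caveolin and cavin genes examined here are cav1, cav2, cav3 and the zebrafish copies of cavin1, cavin2 and cavin4, which make 9 gene symbols in all. They were looked up by symbol, without regard to case, among the 32520 genes of the deposited count table. The symbols cav1, cav2, cav3, cavin4a and cavin4b each matched 1 gene, 5 in all. The other 4 genes stand in the identifier table under the human-style symbols CAVIN1 (ENSDARG00000059362 and ENSDARG00000076411) and CAVIN2 (ENSDARG00000027611 and ENSDARG00000071196). Which member of each pair is the a copy and which the b copy was not settled with the tables used here, so these 4 genes are named by identifier. All 9 genes passed the filter on low counts.

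RNA was measured in 9 libraries of zebrafish larvae (strain AB) at 60 hours post fertilisation. There were 4 libraries of the proepicardium, the cell cluster that gives rise to the outer layer of the heart, 3 of the heart tube and 2 of the dorsal pericardium, the wall of the heart cavity. All fish carried the transgenes epi:eGFP and myl7:mRFP, which mark cells and served as no treatment, and there was no untreated or mutant group. Each library was made by amplifying cDNA from a pool of at least 10 hand-dissected organs, so a library is a mixture of cells, and in such bulk samples fewer cells of a type and less RNA per cell cannot be told apart. The labels do not say that pools came from separate clutches, so p-values measure the spread between these pools.

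Totals ran from 8883187 to 19401502 counts per library. Levels are given in CPM, counts relative to library sizes that were adjusted by TMM factors. The limit that a count of 0 allows is 3 counts, or between 0.15 and 0.331 CPM by library, and it covers counting error alone. Heart muscle genes, 7 on the list, summed to between 45458 and 61675 CPM in the heart tube, 124 to 536 CPM in the proepicardium and 29.7 to 84.3 CPM in the pericardium. The 10 epidermal genes of a marker list summed to between 11850 and 46128 CPM in the proepicardium, 52814 to 74385 CPM in the pericardium and 196 to 6436 CPM in the heart tube, with heart tube 1 the highest of its tissue. The 6 fibroblast genes had 1623 to 4444 CPM in the proepicardium, 3560 to 4938 CPM in the pericardium and 276 to 342 CPM in the heart tube. The 6 genes of the epicardial list did not mark the proepicardium against the heart tube as a set. They summed to 32 to 134 CPM in the proepicardium, 162 to 310 CPM in the heart tube and 18.3 to 21.4 CPM in the pericardium. Most of the heart tube level was podxl (mean 187 CPM) and aldh1a2 (53 CPM). All 6 were higher in every proepicardium library than in both pericardium libraries, as were 7.65% of all genes tested. None was called there, and the median log2 difference of the 5 tested was 1.97. Against the heart tube, 1 of the 5 tested was higher in the proepicardium, wt1b (0.773 to 2.58 CPM there), and 1 was lower, podxl. The gene listed as WT1 had 0.249 to 1.11 CPM in the proepicardium and was not tested. Proepicardium 3 and 4 and heart tube 1 stood apart from the rest of their tissues in several genes below. The proepicardium libraries also split over all genes with enough counts. Chi-square per degree of freedom, larger for less alike counts, was 88.3 for proepicardium 1 and 2 and 52 for 3 and 4. It was 133 to 299 for the other pairs of that tissue. For heart tube 2 and 3 it was 66.9, and 76.8 and 98.1 for the pairs with heart tube 1. These values also rise with sequencing depth.

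Between proepicardium and heart tube, 6 of the 9 caveolar genes passed the test, 5 higher in the proepicardium and 1 lower (edgeR quasi-likelihood test on all 9 libraries, Benjamini-Hochberg adjusted p under 0.05 over 17003 genes). Of all genes tested, 29.4% passed in this comparison, 16.8% higher and 12.7% lower. Between heart tube and pericardium 6 of the 9 passed, 2 higher in the heart tube and 4 lower, against 27.1% of all genes, 11% higher and 16.1% lower. Both comparisons share the heart tube libraries. The first count was 2 of 9 without heart tube 3 and 3 of 9 without proepicardium 2 or heart tube 2. Over all genes the calls then fell from 5007 to 3919, 4116 and 3958, in that order. The second count was 3 of 9 without pericardium 1 and 2 of 9 without pericardium 2. Over all genes the calls then fell from 4613 to 2315 and 2231. The median log2 difference of the 9 genes was 1.86 for proepicardium minus heart tube and -1.44 for heart tube minus pericardium, beside 0.17 and -0.09 over all genes tested. The largest differences were those of CAVIN1 ENSDARG00000076411, higher in the heart tube, and CAVIN2 ENSDARG00000027611, lower there, while CAVIN2 ENSDARG00000071196 was not called in any comparison.

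**Figure D1:**
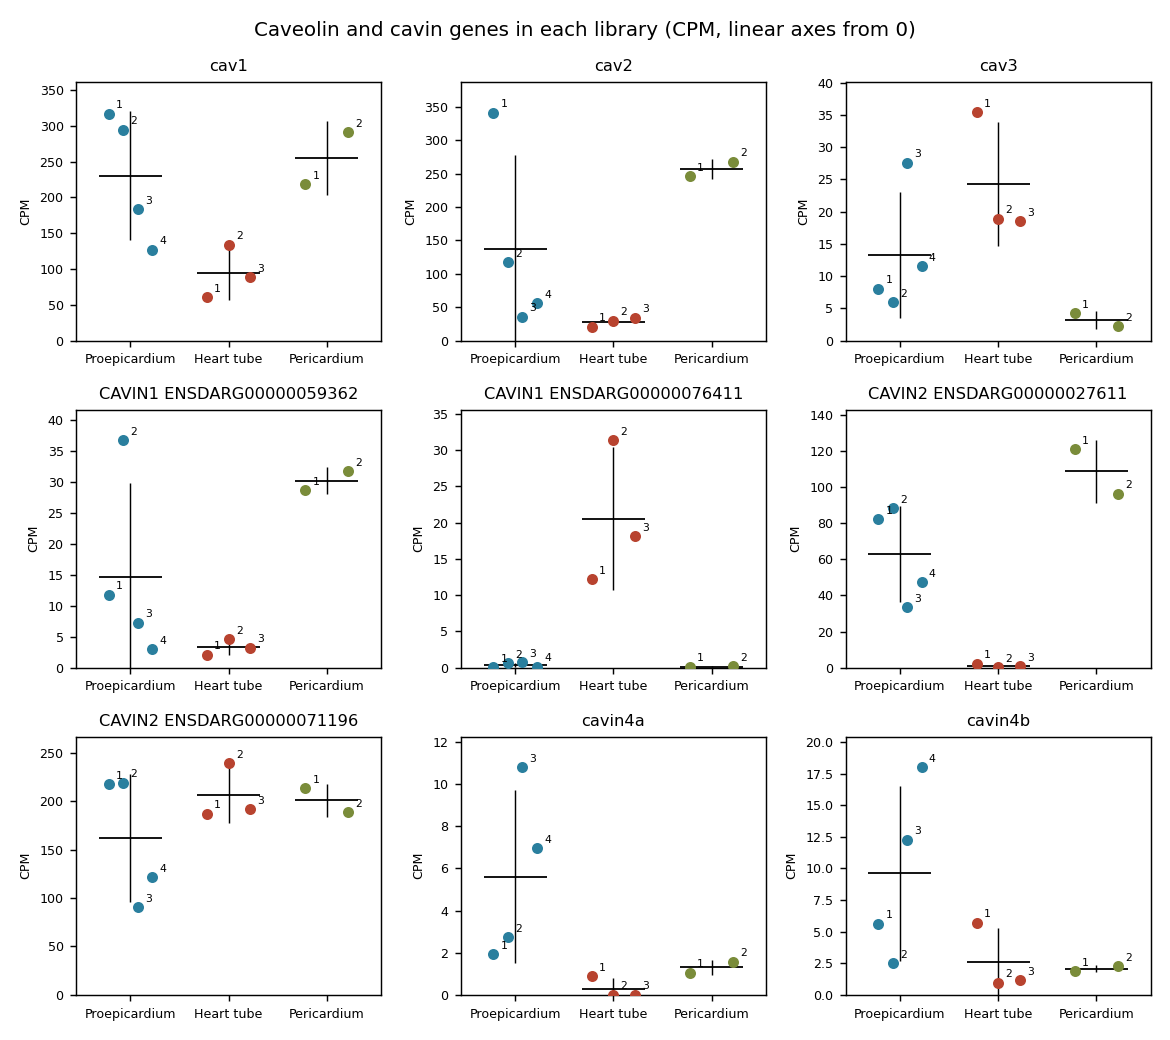
CPM of each of the 9 genes by tissue, on linear axes from 0; points are libraries with their replicate number, horizontal lines are means and vertical lines span 1 SD to each side, ended at 0. CAVIN1 ENSDARG00000076411 is near 0 outside the heart tube (12.2 to 31.4 CPM there), and CAVIN2 ENSDARG00000027611 is near 0 inside it (at most 2.16 CPM).

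cav1 encodes the main coat protein of caveolae outside striated muscle. It stood at 317, 295, 184 and 127 CPM in proepicardium 1 to 4, at 60.4, 134 and 88.7 CPM in heart tube 1 to 3, and at 219 and 291 CPM in the pericardium. The heart tube libraries were lower than both pericardium libraries, and heart tube 2 was slightly above proepicardium 4. The fold change of proepicardium over heart tube was 2.45, a log2 difference of 1.29 ± 0.40 (SE, edgeR adjusted p = 0.029). The heart tube was lower than the pericardium by a log2 difference of -1.44 ± 0.45 (edgeR adjusted p = 0.034). Single libraries decided both calls: the first was lost without proepicardium 1 (edgeR adjusted p = 0.0579), proepicardium 2 (0.0702), heart tube 1 (0.0958) or heart tube 3 (0.0953), and the second without heart tube 1 (0.104), heart tube 3 (0.0944), pericardium 1 (0.106) or pericardium 2 (0.216). Of 19 alternatives, 6 lost the first call and 6 the second, changes of method among them.

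cav2 encodes a caveolin that assembles with caveolin 1. It lies next to cav1 in the RefSeq annotation of assembly GRCz12tu, with 0 annotated genes between them. Its level was 341 CPM in proepicardium 1, 117 in proepicardium 2, 35.7 in proepicardium 3 and 55.8 in proepicardium 4. In the heart tube it was 20.8, 29.5 and 34.5 CPM, and in the pericardium 246 and 268 CPM. Every heart tube library lay below every library of the other tissues, but proepicardium 3 exceeded heart tube 3 by little. The proepicardium was higher than the heart tube by a log2 difference of 2.28 ± 0.69 (edgeR adjusted p = 0.0301), and the heart tube was lower than the pericardium by -3.19 ± 0.78 (edgeR adjusted p = 0.0122). Without proepicardium 2, any heart tube library or either pericardium library, the first call was lost, with edgeR adjusted p from 0.0507 to 0.0711, and without pericardium 1 (0.0594) or pericardium 2 (0.061) the second. Of 19 alternatives, 9 lost the first call and 4 the second, changes of method among them. Of the counts of both genes together, cav2 took 51.8% in proepicardium 1 and 16.3% to 30.5% in the other proepicardium libraries, 18.1% to 28% in heart tube libraries, and 53% and 47.9% in the pericardium.

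cav1 is also a gene of endothelium in vertebrates. The 10 genes of the endothelial list summed to between 587 and 783 CPM in the heart tube, where cav1 was lowest. Their sum was 57.1 to 201 CPM in the proepicardium and 41 to 106 CPM in the pericardium. Of the 10, 9 were called higher in the heart tube in each comparison, beside 12.7% (against proepicardium) and 11% (against pericardium) of all genes tested. The epidermal and fibroblast sums given above moved in the same direction as cav1 and cav2 across tissues. The part of endothelial, epidermal or fibroblast RNA in the levels of cav1 and cav2 was not tested. In zebrafish larvae cav1 is known for its expression in the notochord, and the summed level of the 6-gene notochord list was, like cav1, lowest in the heart tube. The sum was 10.3, 10.8, 51.3 and 72 CPM in proepicardium 1 to 4, where cav1 ran the other way, from 317 to 127 CPM. It was 12.1 to 18.7 CPM in the pericardium and 1.04 to 1.79 CPM in the heart tube. Nearly all of that came from both genes listed as SHH, which neural floor plate and epithelia also express, and both were called higher in the proepicardium and in the pericardium, each against the heart tube. The other 4 genes did not pass the filter on low counts: tbxta had at most 6 counts in a library, noto 1, cmn 11 and col8a1a 1. The part of notochord RNA in the levels of cav1 was not tested.

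The cavin1 genes encode the cavin that, in mammals, is needed for caveolae to form, and both zebrafish copies had opposite tissue patterns. CAVIN1 ENSDARG00000076411 had 220, 454 and 222 counts in the heart tube (12.2, 31.4 and 18.1 CPM), 1, 7, 12 and 1 counts in the proepicardium, and 3 and 2 counts in the pericardium. No library of another tissue came above 0.737 CPM. Against the proepicardium, the heart tube level was 53.1-fold higher, which as proepicardium minus heart tube is a log2 difference of -5.73 ± 0.70 (edgeR adjusted p = 0.000144). Against the pericardium it was called as well (edgeR adjusted p = 0.000629), and the ratio of the summed rates was 126, with an exact 95% interval of 53.7 to 388 that covers counting error only. These calls held with each library left out.

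The other copy, CAVIN1 ENSDARG00000059362, was present in all tissues. It had 11.8, 36.8, 7.25 and 2.98 CPM in proepicardium 1 to 4, 2.1, 4.56 and 3.26 CPM in heart tube 1 to 3, and 28.7 and 31.8 CPM in the pericardium. Proepicardium 2 was above both pericardium libraries, and proepicardium 4 was within the heart tube range. The heart tube was lower than the pericardium by a log2 difference of -3.19 ± 0.82 (edgeR adjusted p = 0.0148). That call was lost without pericardium 1 (0.0563) or pericardium 2 (0.0612). The proepicardium was higher than the heart tube by 2.15 ± 0.73 on the log2 scale (edgeR adjusted p = 0.0457). With any single library other than proepicardium 3 or 4 left out, this call was lost, with edgeR adjusted p from 0.0641 to 0.131. Without proepicardium 2, the highest library, the log2 fold change was 1.09. Of 19 alternatives, 12 lost the call between proepicardium and heart tube, changes of method among them.

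Within the cavin1 pair, ENSDARG00000059362 took 99.5%, 98.4%, 90.8% and 96.4% of the counts of both copies in proepicardium 1 to 4. It took 14.7%, 12.7% and 15.3% in the heart tube, and 99.5% in each pericardium library. The widest Wilson 95% interval in the heart tube was 11.4% to 20.1%, and the lowest bound elsewhere was 82.3%, in proepicardium 4. A share within a library does not depend on how libraries are scaled to each other. The log2 ratio of the copies differed between tissues: of all ways to divide the libraries into groups of 4, 3 and 2, 2 gave a between-tissue sum of squares as large (exact permutation p = 0.00159, adjusted p = 0.00317 over the 4 ratios tested).

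**Figure D2:**
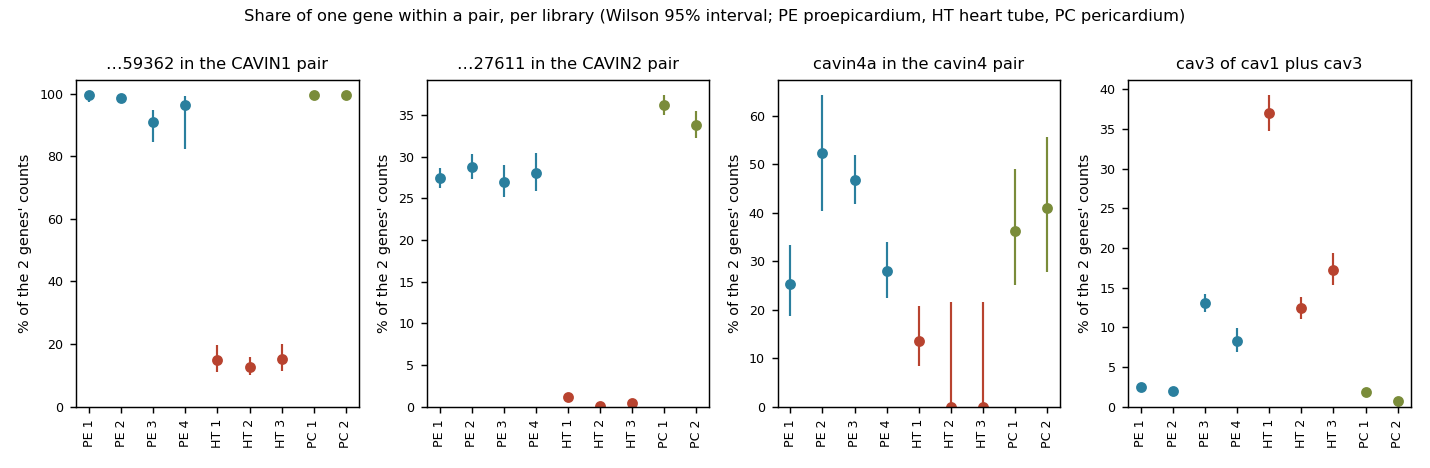
Percent of the summed counts of 2 genes that came from the named gene, in each library, with Wilson 95% intervals. The heart tube libraries stand at 12.7% to 15.3% for the cavin1 pair and at most 1.14% for the cavin2 pair, away from all other libraries, while the groups are less separated for cavin4 and for cav3 against cav1.

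The cavin2 genes encode a cavin that binds phosphatidylserine and bends membranes in mammals, and only the level of ENSDARG00000027611 was called as differing between tissues. This copy had 82.2, 88.5, 33.5 and 47.4 CPM in proepicardium 1 to 4, 2.16, 0.207 and 0.897 CPM in heart tube 1 to 3, and 121 and 96.4 CPM in the pericardium. The lowest proepicardium library was far above the highest heart tube library, heart tube 1, and both pericardium libraries were above all others. The epidermal list sums had the same order of tissues, with heart tube 1 also highest of its tissue (6436 CPM). Single libraries differed in order in the pericardium and between proepicardium 1 and 2. The part of epidermal RNA in the level of this copy was not tested. The log2 fold change was 5.81 ± 0.70 for proepicardium minus heart tube (edgeR adjusted p = 0.000175) and -6.60 ± 0.75 for heart tube minus pericardium (edgeR adjusted p = 0.000181). Both calls held in all 19 alternatives run, including a fit on fewer libraries that was chosen after seeing the data. Without heart tube 1, which held 39 of the counts of its tissue beside 3 and 11, the first was 6.84 and the second -7.59.

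The second copy, CAVIN2 ENSDARG00000071196, stood at 218, 219, 90.6 and 121 CPM in proepicardium 1 to 4, 187, 240 and 192 CPM in heart tube 1 to 3, and 213 and 189 CPM in the pericardium. All tissues overlapped. Its log2 fold changes were -0.35 ± 0.34 for proepicardium minus heart tube (edgeR adjusted p = 0.486), 0.04 ± 0.41 for heart tube minus pericardium (0.961) and -0.31 ± 0.39 for proepicardium minus pericardium (0.971). Proepicardium 3 and 4 were the lowest of the 9 libraries for this copy.

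Proepicardium 3 and 4 were thus low in both cavin2 copies, and the share of ENSDARG00000027611 in the pair was nearly the same in all proepicardium libraries, at 27.4%, 28.8%, 27% and 28.1%. It was 36.2% and 33.8% in the pericardium, above every proepicardium library, and 1.14%, 0.0865% and 0.465% in the heart tube. No other division of the 9 libraries gave as large a between-tissue sum of squares of the log2 ratio (1 division, exact permutation p = 0.000794, the smallest it can give, adjusted p = 0.00317).

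**Figure D3:**
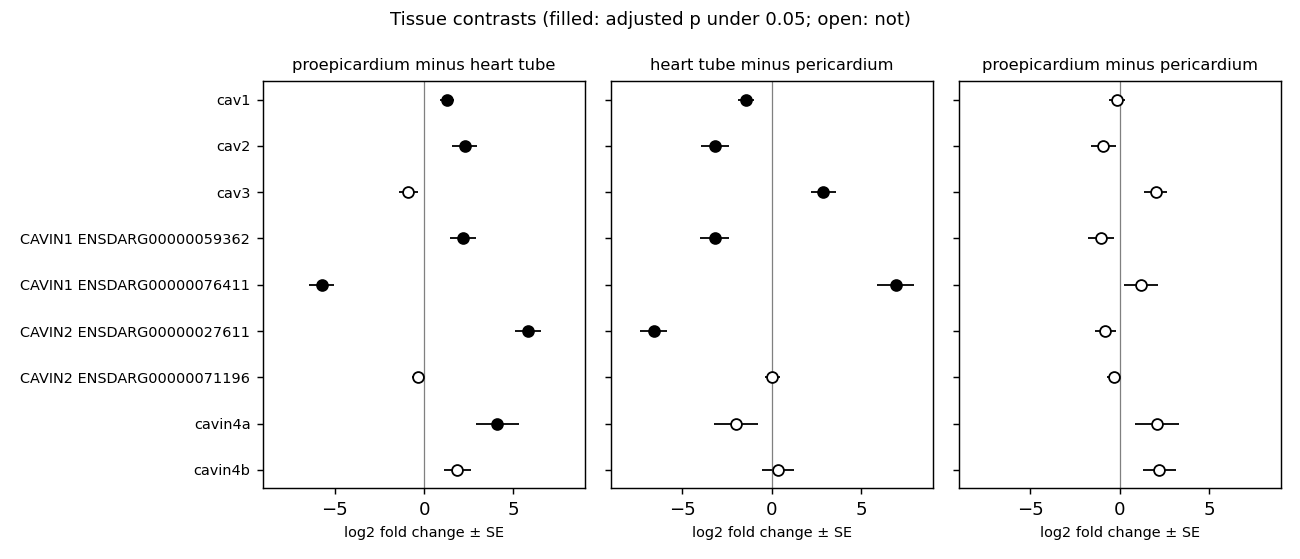
Log2 fold changes with their SE for the 9 genes in the 3 comparisons, from the model on all libraries; filled points passed an adjusted p of 0.05. The largest are those of CAVIN1 ENSDARG00000076411, whose fitted value against the pericardium rests on 3 and 2 counts there, and CAVIN2 ENSDARG00000027611 (5.81 and -6.60).

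cav3 encodes the caveolin of striated muscle. It had 35.4, 18.9 and 18.5 CPM in heart tube 1 to 3, 8.06, 5.97, 27.6 and 11.5 CPM in proepicardium 1 to 4, and 4.21 and 2.26 CPM in the pericardium. The heart tube was above the pericardium in every library, with a log2 difference of 2.89 ± 0.69 (edgeR adjusted p = 0.00935), a call lost without pericardium 2 (edgeR adjusted p = 0.0992). Proepicardium 3 was higher than heart tube 2 and 3, and between proepicardium and heart tube cav3 was not called (log2 fold change -0.87 ± 0.50, edgeR adjusted p = 0.224). Without proepicardium 3 that difference was -1.54 and was called (edgeR adjusted p = 0.0197). Relative to cav1, cav3 took 37%, 12.4% and 17.3% of the counts of both in the heart tube, 2.48%, 1.99%, 13% and 8.29% in proepicardium 1 to 4, and 1.89% and 0.77% in the pericardium. The log2 ratio differed between tissues (27 divisions, exact permutation p = 0.0214, adjusted p = 0.0286), and without pericardium 2 the exact permutation p was 0.0643.

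cavin4a and cavin4b encode the muscle-restricted cavin, found at the sarcolemma and T-tubules of striated muscle. Their counts were low, and their order of tissues was not that of cav3. cavin4a had 34, 33, 176 and 63 counts in the proepicardium (1.92, 2.74, 10.8 and 6.96 CPM), 16, 0 and 0 counts in the heart tube, and 21 and 18 counts in the pericardium (1.05 and 1.56 CPM). All proepicardium libraries were above both pericardium libraries, and these above all heart tube libraries. The proepicardium was higher than the heart tube by a log2 difference of 4.11 ± 1.18 (edgeR adjusted p = 0.0222). Mean levels were 5.61 ± 4.11 CPM (SD, n = 4) and 0.295 ± 0.511 CPM (SD, n = 3), and with 2 heart tube libraries at 0 the fitted value depends on the prior count. This call was lost without proepicardium 3 (edgeR adjusted p = 0.05, above the threshold before rounding), heart tube 2 (0.054) or heart tube 3 (0.0558). It was lost in 4 of the 18 alternatives that gave a value. The heart tube was not called against the pericardium (-2.01 ± 1.25, edgeR adjusted p = 0.272), but was without heart tube 1, the library that held all its 16 counts (edgeR adjusted p = 0.0115).

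cavin4b had 5.64, 2.49, 12.3 and 18 CPM in proepicardium 1 to 4, 5.7, 0.968 and 1.14 CPM in heart tube 1 to 3, and 1.86 and 2.26 CPM in the pericardium. Heart tube 1 reached the level of proepicardium 1. The log2 difference of 1.86 ± 0.77 between proepicardium and heart tube was not called (edgeR adjusted p = 0.0923), and without heart tube 1 it was 3.21 and called (edgeR adjusted p = 0.013). For heart tube minus pericardium it was 0.36 ± 0.90 (edgeR adjusted p = 0.82), with a sign that turned to -0.91 without heart tube 1. The share of cavin4a in the cavin4 pair was 25.4%, 52.4%, 46.8% and 27.9% in the proepicardium, 36.2% and 40.9% in the pericardium, and 13.4% in heart tube 1. It was 0 of 14 counts in each of heart tube 2 and 3, with a Wilson 95% upper bound of 21.5%. The difference between tissues had an exact permutation p of 0.0389 (49 divisions, adjusted p = 0.0389). It reached 0.05 to 0.0667 with any single proepicardium or heart tube library left out.

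**Figure D4:**
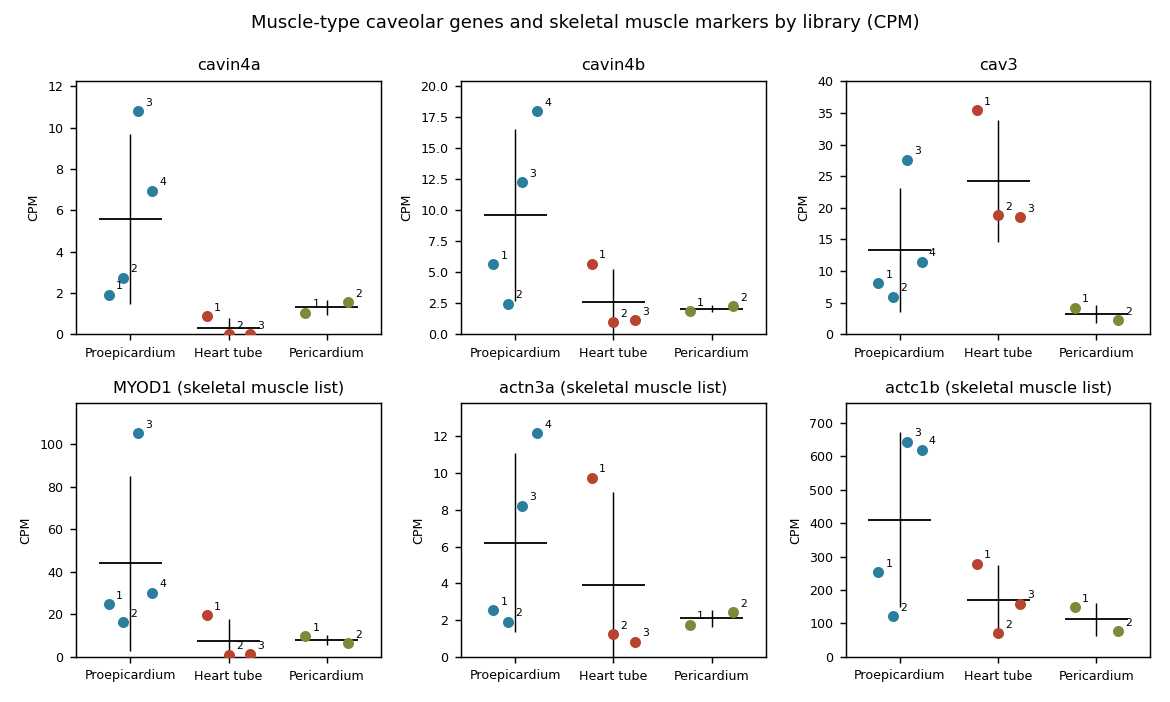
CPM of cavin4a, cavin4b and cav3 (top) and of 3 genes of the skeletal muscle list (bottom) by tissue; points are libraries with replicate numbers, lines are means and 1 SD, ended at 0. Proepicardium 3 and 4 and heart tube 1 are high within their tissues for cavin4b, actn3a and actc1b. ckma, also on that list, is not shown.

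Some skeletal muscle markers, MYOD1 and actn3a among them, varied with the muscle-type caveolar genes between libraries of the proepicardium and of the heart tube. MYOD1, the transcription factor that sets skeletal muscle identity, had 24.6, 16.3, 105 and 30.2 CPM in proepicardium 1 to 4, 19.6, 0.968 and 1.22 CPM in heart tube 1 to 3, and 9.63 and 6.43 CPM in the pericardium. actn3a, an alpha-actinin of fast muscle, had 2.54, 1.91, 8.23 and 12.2 CPM, then 9.73, 1.24 and 0.815 CPM, then 1.76 and 2.43 CPM in the same order. Both markers were highest in proepicardium 3 or 4 and, within the heart tube, in heart tube 1, as cavin4a and cavin4b were. In the pericardium MYOD1 was higher in pericardium 1, whereas cavin4a and cavin4b were higher in pericardium 2. The 4 skeletal muscle genes matched summed to 187 to 946 CPM in the proepicardium, 117 to 192 CPM in the pericardium and 1061 to 1436 CPM in the heart tube. In the heart tube most of that sum was the creatine kinase gene ckma, with 900 to 1144 CPM. ckma was called higher in the heart tube than in the proepicardium, the reverse of cavin4a. Its log2 difference was -3.50 ± 0.49 for proepicardium minus heart tube (edgeR adjusted p = 0.000371). Sums of other lists also set some of these libraries apart. The erythroid genes summed to 2300 and 2072 CPM in proepicardium 3 and 4 beside 728 and 453 CPM in proepicardium 1 and 2, and to 5362 CPM in heart tube 1 beside 2011 and 1086 CPM in heart tube 2 and 3. Notochord list sums were 51.3 and 72 CPM in proepicardium 3 and 4 beside 10.3 and 10.8 CPM, and epicardial list sums 134 and 78 CPM beside 32.1 and 32 CPM. The epidermal sum was lowest of its tissue in proepicardium 3 and 4. The part of skeletal muscle RNA, or of any of these other cell types, in the levels of cav3, cavin4a and cavin4b was not tested. Proepicardium 3 and 4 and heart tube 1 were also left out together. This choice was made after seeing the data, these same genes included, so the counts that follow are no separate support. Then 8 of the 9 caveolar genes were called between proepicardium and heart tube and 7 between heart tube and pericardium. Over all genes 5406 and 5591 were called, beside 5007 and 4613 with all 9 libraries. The filter on low counts was run again on the libraries left, so the number of genes tested may differ.

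Between proepicardium and pericardium none of the 9 caveolar genes was called, nor any of the 17003 genes tested with edgeR (0%). DESeq2 called 101 genes and limma-voom 7, none of them caveolar. At an unadjusted p under 0.05 edgeR had 834 genes, 4.91% of all, and 2 of the 9 caveolar genes, cav3 and cavin4b. cav3 was higher in the proepicardium by 2.02 ± 0.65 (log2, unadjusted p = 0.00887 and adjusted p = 0.919 from edgeR) and cavin4b by 2.22 ± 0.93 (unadjusted p = 0.0347, adjusted p = 0.971). cav3, cavin4a and cavin4b were higher in every proepicardium library than in both pericardium libraries, an arrangement found in 7.65% of all genes. CAVIN2 ENSDARG00000027611 was lower in every proepicardium library than in both pericardium libraries, as were 7.75% of all genes, with a log2 difference of -0.79 ± 0.58. Log2 fold changes of cav1, cav2 and CAVIN1 ENSDARG00000059362 were -0.15 ± 0.43, -0.90 ± 0.70 and -1.04 ± 0.73. With 2 pericardium libraries, these values leave room for differences in either direction. CAVIN1 ENSDARG00000076411 had at most 12 counts in any of these libraries.

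In order of level, the pericardium and then the proepicardium were highest for cav1, cav2, CAVIN1 ENSDARG00000059362 and CAVIN2 ENSDARG00000027611, with no call between these neighbours, and the heart tube was lowest. For cav3 the order was heart tube, proepicardium, pericardium, with a call between the outer tissues alone. CAVIN1 ENSDARG00000076411 was highest in the heart tube, and the other tissues did not differ beyond their spread. The order for cavin4a was proepicardium, pericardium, heart tube, with a call between the outer tissues alone, and for cavin4b no neighbours were separated. Transcript lengths were not used, so the level of each gene is compared between tissues. Shares within a pair of genes and sums over lists depend on transcript length as well. They too are compared between tissues, and their size in a library does not give relative transcript numbers.

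Other proteins work at the neck of caveolae. Of 12 genes for such proteins (EHD ATPases, which hold caveolae at the cell surface, pacsins, which curve the neck, and dynamin 2, which cuts membranes), 9 were tested. In the proepicardium 2 were higher and 2 lower against the heart tube, and between heart tube and pericardium 3 were higher and 2 lower in the heart tube. Of all genes tested, 29.4% and 27.1% were called in these comparisons. Median log2 fold changes of the 9 were 0.92 and -0.65, beside 0.17 and -0.09 over all genes tested. EHD1 ENSDARG00000098853 had 22.9 to 53.5 CPM in the proepicardium, 2.61 to 4.56 CPM in the heart tube, and 53.4 and 86 CPM in the pericardium. The proepicardium exceeded the heart tube by 3.45 ± 0.41 (log2, edgeR adjusted p = 0.000129) and the log2 difference of heart tube minus pericardium was -4.16 ± 0.45 (edgeR adjusted p = 0.000105). The other gene listed as EHD1, ENSDARG00000014793, chosen after its values were seen, went the opposite way. It had 50.2 to 71.7 CPM in the heart tube, 26.5 to 42.4 CPM in the proepicardium and 23.6 to 23.9 CPM in the pericardium. Its log2 fold changes were -1.01 ± 0.28 (edgeR adjusted p = 0.017) and 1.40 ± 0.35 (0.0115), and these calls were lost without heart tube 2 (0.0625) and without pericardium 1 (0.0707) or 2 (0.0967), respectively. The first was also lost with the replicate block (edgeR adjusted p = 0.0526).

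EHD2 ENSDARG00000040362, a copy of the EHD gene best known from caveolae, had 21.4 to 37.3 CPM in the proepicardium, 9.9 to 14.9 CPM in the heart tube, and 42.3 and 32.2 CPM in the pericardium. The log2 fold changes were 1.26 ± 0.31 for proepicardium minus heart tube (edgeR adjusted p = 0.0095) and -1.52 ± 0.35 for heart tube minus pericardium (0.00763). The second call was lost without pericardium 1 (edgeR adjusted p = 0.13). ehd4 was the opposite, at 1.1 to 1.58 CPM in the proepicardium and 5.58 to 8.78 CPM in the heart tube, a log2 difference of -2.53 ± 0.44 (edgeR adjusted p = 0.00137). Its mean in the pericardium was 2.32 CPM. Heart tube minus pericardium was 1.69 ± 0.54 (log2, edgeR adjusted p = 0.0361), a call lost in 6 of 19 alternatives. The pacsin and dynamin 2 genes that were tested were not called between proepicardium and heart tube. PACSIN1 ENSDARG00000032865 and dnm2b were not tested. PACSIN1 ENSDARG00000042128, chosen after its values were seen, was higher in the heart tube than in the pericardium (log2 fold change 3.36 ± 0.93, edgeR adjusted p = 0.0196). That call was lost without pericardium 1 (0.128) or pericardium 2 (0.103).

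**Figure D5:**
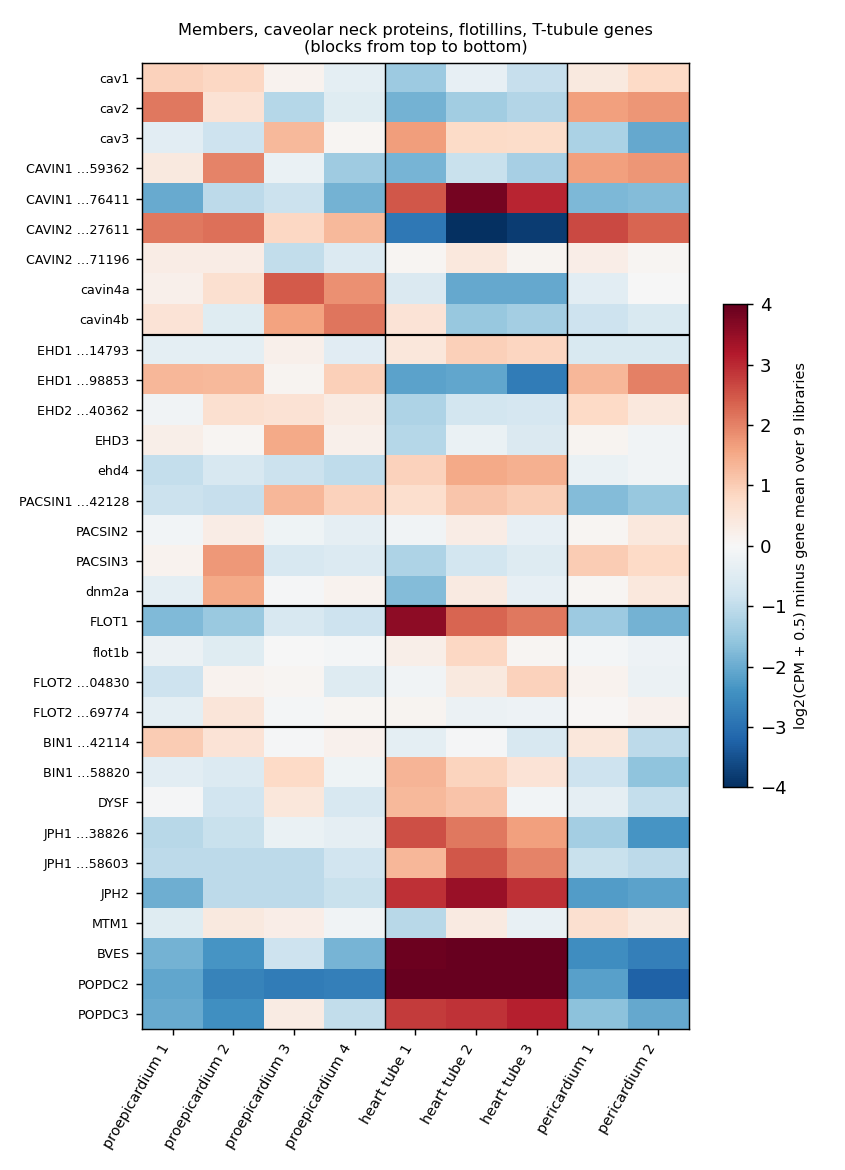
log2(CPM + 0.5) minus each gene's mean over the 9 libraries, for the 9 caveolar genes (top block), tested genes of the caveolar neck, flotillins and T-tubule genes (bottom block); the colour scale ends at -4 and 4, and shortened identifiers show their last 5 digits. FLOT1, JPH2, BVES and POPDC2 are higher in all 3 heart tube libraries than elsewhere, and EHD1 ENSDARG00000098853 is lower.

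Flotillins form other membrane domains than caveolae. Of 4 genes 1 was called in each comparison with the heart tube, the gene listed as FLOT1 (flot1a). That count is near the share of all genes tested that were called, 29.4% against the proepicardium and 27.1% against the pericardium. It had 57.2 to 160 CPM in the heart tube, 3.44 to 7.98 CPM in the proepicardium, and 4.41 and 3.13 CPM in the pericardium, log2 fold changes of -4.05 ± 0.45 (edgeR adjusted p = 8.65e-05) and 4.64 ± 0.62 (0.000344). flot1b and both FLOT2 genes were not called. The median log2 difference of the 4 was -0.65 for proepicardium minus heart tube and 0.52 for heart tube minus pericardium. Over all genes tested these medians were 0.17 and -0.09.

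Of 10 genes for T-tubule and sarcolemmal proteins of striated muscle, 6 were called higher in the heart tube than in the proepicardium. Against the pericardium 7 were. Of all genes tested, 12.7% and 11% were called higher in the heart tube in these comparisons. Median log2 differences of the 10 were -3.48 (proepicardium minus heart tube) and 4.78 (heart tube minus pericardium), beside 0.17 and -0.09 over all genes tested. BVES, a cyclic AMP-binding membrane protein of striated muscle, had 421 to 528 CPM in the heart tube, 4.98 to 15.3 CPM in the proepicardium and at most 4.46 CPM in the pericardium (edgeR adjusted p = 1.21e-05 and 4.9e-05). POPDC2, of the same family, had 106 to 368 CPM in the heart tube and at most 0.62 CPM elsewhere (edgeR adjusted p = 2.96e-05 and 0.000231). JPH2, which in mammals tethers the sarcoplasmic reticulum to T-tubules, had 19.1 to 27.7 CPM in the heart tube and at most 0.884 CPM elsewhere (edgeR adjusted p = 4.77e-05 and 9.21e-05). RNA levels of these genes do not show whether T-tubules were present. Of the muscle-type caveolar genes, cav3 and cavin4b were counted in all 9 libraries, and cavin4a was at 0 in 2 of 3 heart tube libraries.

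The genes most like each caveolar gene over the 9 libraries were ranked by Pearson's r of log2 CPM among 6961 genes that had a symbol and a mean of at least 10 CPM. Libraries of a tissue share its cell mixture, so r is given as a description. cav3 was most like BIN1 ENSDARG00000058820, which shapes T-tubules (r = 0.985), and TMEM38A, a channel of the sarcoplasmic reticulum (r = 0.971). The heart tube copy CAVIN1 ENSDARG00000076411 was most like mical2b (r = 0.994) and ALCAM (r = 0.992), and CAVIN2 ENSDARG00000027611 was most like MAPK12 (r = 0.999) and mpzl2b (r = 0.998). cavin4a was most like the homeobox genes HOXB5 (r = 0.98) and HOXA3 (r = 0.976), and cavin4b was most like SMARCD1 (r = 0.964) and si:ch73-367p23.2 (r = 0.942). For cav1, si:ch211-122f10.4 was among the closest (r = 0.978), and for its neighbour cav2 the closest were GMPPB (r = 0.993) and wbp2nl (r = 0.992). CAVIN1 ENSDARG00000059362 came closest to FLRT2 (r = 0.96) and PARG (r = 0.958), and CAVIN2 ENSDARG00000071196 to PLCD1 (r = 0.987) and ATG5 (r = 0.954).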

How the data were processed

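RNA-seq libraries of proepicardium, heart tube and pericardium were grouped by their titles. The raw table holds read counts per Ensembl gene that the authors deposited without normalisation; the submitters' processing notes name CASAVA 1.8, fastp, STAR, featureCounts, DESeq2 and the build GRCz11, with no role or order. Rows that are no gene (16) were left out. The normalised table holds log2 values deposited by the authors; all 193374 matched rlog values recomputed from the raw table with DESeq2 to within 1e-06. Symbols came from an identifier table naming 29201 genes; list symbols shared by more identifiers than the list has copies were not used. Reads of similar gene copies may be shared between them.

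Tests on raw counts used edgeR 4.0.16 and R 4.3.3 (filterByExpr, minimum count 10 and minimum total 15; TMM; glmQLFit with robust estimation; tissue as the only factor, all 9 libraries). SE is the log2 fold change divided by the square root of F. Ratios of genes used log2 of counts plus 0.5; since the cavin1 and cavin2 copies could not be assigned, 1 identifier stands for its pair, which leaves the planned test unchanged. The edgeR step was tested on simulated data, and the permutation test was not. Members and lists were chosen with earlier results of these data known. Named genes are the 9 members, called partner genes (adjusted p under 0.01, at most 3 per list and direction) and the 2 most similar genes of each member; 1 of these similar genes is not reported here. EHD1 ENSDARG00000014793, PACSIN1 ENSDARG00000042128 and the marker genes were named outside this rule, after their values were seen. Alternatives were DESeq2 1.42.0 and upper-quartile factors, no filter, a mean count of 50, DESeq2, limma-voom and limma 3.58.1 on the deposited log2 values, pairs of tissues alone, a replicate block and each library left out. A further alternative, chosen after seeing the data, left out proepicardium 3 and 4 and heart tube 1 together. It is counted in all totals of alternatives. No replicate pair agreed within sampling noise.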

Additional observations from a re-analysis of the deposited data

How the results depend on the processing

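The 9 caveolar genes gave 170 values under alternatives for proepicardium against heart tube, of which 132 kept direction and call, 31 lost and 6 gained the call. For heart tube against pericardium 149 of 170 kept both, 13 lost and 3 gained the call, and for proepicardium against pericardium 164 of 169 kept both. These totals include the fit without proepicardium 3 and 4 and heart tube 1, which was chosen after seeing these same genes. That fit called 8 and 7 of the 9 genes in the comparisons with the heart tube, beside 6 in each main test. The totals are therefore not planned checks alone. CAVIN1 ENSDARG00000076411 and CAVIN2 ENSDARG00000027611 kept both calls in every alternative run. Between proepicardium and heart tube, limma on the deposited log2 values called 3 of the 9 caveolar genes, beside 6 in the main test. Over all genes it called 5225, beside 5007 in the main test. Leaving out single libraries gave 2 (without heart tube 3) to 6, beside 3919 to 4875 of all genes. Between heart tube and pericardium leaving out a library gave 2 (without pericardium 2) to 6, with fewer samples by construction. Over all genes the count there ran from 2231 to 4750 with a library left out and was 6926 with limma-voom. Between proepicardium and pericardium it was 9 without a filter, 101 with DESeq2, 7 with limma-voom and 11 without proepicardium 3 and 4 and heart tube 1; the cause was not tested. The permutation p ran from 0.0179 to 0.0667 for the cavin4 pair and from 0.0107 to 0.0643 for cav3 against cav1 with a library left out.

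Uncalled log2 differences changed sign as follows. cavin4b between heart tube and pericardium was -0.49 with limma-voom, -0.038 with limma on the deposited values, -0.16 with the replicate block, -0.91 without heart tube 1 (range -0.91 to 0.86 with a library left out) and -0.95 without proepicardium 3 and 4 and heart tube 1. cav1 between proepicardium and pericardium was 0.19 with the replicate block, 0.08 without proepicardium 4, 0.11 without pericardium 2 (range -0.34 to 0.11 with a library left out) and 0.27 without those 3 libraries, which for CAVIN2 ENSDARG00000071196 gave 0.015 for proepicardium minus heart tube and 0.12 for proepicardium minus pericardium. Deviations from tissue means of same-numbered libraries correlated at -0.0179 to 0.129 over genes (mean 0.0487). Other pairs of libraries had -0.161 to 0.161 (mean -0.0181). Deviations of the 2 pericardium libraries mirror each other, and groups are small. These values therefore cannot show whether replicate numbers mark paired libraries. With the replicate block 4 caveolar genes were called in each comparison with the heart tube and 0 between the other tissues. Over all genes the block gave 4103 calls between proepicardium and heart tube, beside 5007 without it. Between heart tube and pericardium it gave 3658, beside 4613. Depth limits cavin4a, at 0 counts in 2 heart tube libraries, and CAVIN1 ENSDARG00000076411, with at most 12 counts in any library outside the heart tube, and every comparison with the pericardium rests on 2 libraries of it.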
